A study of Rattus norvegicus with 8 samples.

Results

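Potassium channel genes were taken as every gene symbol made of Kcn, at least 1 lower-case letter and an optional number, which covers the pore-forming subunits and the auxiliary subunits named after them. In the files, 580 of the 98356 alternative polyadenylation (APA) sites carried such a symbol, and the sites belonged to 82 of the 18003 gene symbols. The symbols were sorted into 21 subfamilies by the letters after Kcn. The question was whether the abundance or the site use of these transcripts differed between cannabis-exposed rats and air-treated controls.

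Potassium channels let potassium ions leave or enter a cell along their gradient, and so set the resting potential, shape action potentials and limit firing. Voltage-gated channels open on depolarization, inward rectifiers and background channels hold the membrane near rest, and calcium-activated channels follow spikes that bring in calcium. In the hypothalamus, ATP-sensitive and G protein-gated inward rectifiers are known to link nutrients and transmitters to the firing of feeding neurons, and cannabinoid receptors are known to couple to the G protein-gated type.

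In whole transcriptome termini site sequencing (WTTS-Seq), only the 3′ end of a polyadenylated transcript is sequenced. A read therefore marks 1 APA site, whatever the length of the transcript, and a gene has as many rows as it has sites. The RNA came from the hypothalamus of adult male Long-Evans rats, an outbred strain. A total of 4 rats had inhaled vapor of cannabis plant matter with 7.8% THC and 0.5% CBD for 10 min, and 4 air-treated controls had been exposed with an unfilled vaporizer. Tissue was collected 1 hr after exposure, an hour that the rats spent without food, and the labels number the controls 1, 2, 3 and 4 and the exposed rats 1, 2, 3 and 5. The values are normalized counts, that is reads scaled by a factor for each library. In the order of these numbers, each list below gives the 4 air controls and then the 4 cannabis-exposed rats, errors are SD with n = 4 per group, and a sum is the total over all sites of a gene.

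Per library, 1159811 to 3706778 reads fell on sites, of which 0.323 to 0.363% lay on potassium channel sites. Air control replicate 4 and cannabis replicate 1 had the largest shares of sites without a read, at 26.1 and 17.0%, against 3.32 to 10.3% in the other 6 libraries. Of the 82 potassium channel sums, 7 were higher in both of these libraries than in all of the other 6 and 13 were lower, against 8.47% and 16.9% of all gene sums. Among markers of other cell types and regions, 3 of 4 midbrain dopamine genes (Slc6a3, Th and En1) were lower in the cannabis-exposed rats at P under 0.01, while the fourth, Foxa1, which was low in all libraries, had 3.18 ± 2.05 in the controls and 5.87 ± 2.98 in the exposed rats and did not pass (log2 fold change 0.75). The summed level of all 4 was 543 to 741 in the controls and 101 to 241 in the exposed rats. Of the 7 hypothalamic genes with a site, Avp and Oxt were higher at P under 0.01, with a list total of 2575 to 4950 against 6626 to 8709. Avp had 1952 ± 996 in the controls and 4934 ± 1383 in the exposed rats. Oxt had 596 ± 244 and 1193 ± 343. Hcrt, Pmch, Agrp and Nkx2-1 also had positive log2 fold changes, and Sim1 a negative one (-0.21). The endothelium total (81.1 to 88.0 against 93.0 to 115) and the thalamus total (165 to 172 against 179 to 229) were also higher in every exposed rat than in every control, without a gene past P under 0.01. The endothelium total was mostly Flt1 (71.0 ± 7.32 against 95.7 ± 12.7). Its other markers had lower means in the exposed rats, Cldn5 with 6.25 ± 6.63 against 4.32 ± 1.30 and Pecam1 with 8.46 ± 3.03 against 6.30 ± 5.03. The thalamus markers Tcf7l2, Lef1 and Prkcd all had higher means. The midbrain dopamine, hypothalamus, endothelium and thalamus totals, 4 in all, separated the groups. Whatever moved with these markers thus cannot be told apart from the treatment. In bulk RNA fewer cells of a type cannot be told apart from less RNA per cell. Neither the midbrain nor the hypothalamic list had a marker at 0 in every library of a group. The neuron, astrocyte, oligodendrocyte, microglia, choroid plexus and pituitary totals overlapped, and none of their genes passed P under 0.01.

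Taken as a whole, the potassium channel transcripts differed between the groups by less than the spread between rats. All 580 sites together had 8098 ± 347 normalized counts in the controls, ranging from 7725 to 8520, and 8135 ± 701 in the cannabis-exposed rats, ranging from 7269 to 8749. The cannabis range took in the whole control range. By subfamily, the channel-interacting proteins (Kcnip) held 17.3% of these counts, the Kcna channels 15.4%, the inward rectifiers (Kcnj) 11.7%, the Kcnc channels 8.74%, the background channels (Kcnk) 8.41%, the Kcnq channels 7.86% and the Kcnd channels 6.97%. The lead of Kcnip over Kcna rests on a Kcnip4 site on the minus strand, described below, whose gene was not settled. The totals of all 21 subfamilies overlapped between the groups.

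No potassium channel gene sum differed between the groups at the threshold of P under 0.01 in limma on log2(normalized count + 1), against 0.1% of all 18003 sums higher and 0.178% lower. At P under 0.05 limma called 1 of the 82 sums, against 2.41% of all sums. With Benjamini-Hochberg adjustment none had P under 0.1, against 0.00555% of all sums, and the lowest adjusted P was 0.999. The count tests on the recovered reads also called 0 of 82 at P under 0.01, against 0.3% of all sums in edgeR and 0.422% in DESeq2. At P under 0.05 they called 3 each, against 2.52% of all sums in edgeR and 2.18% in DESeq2. The log2 fold change was positive for 46 symbols and negative for 36, with a median of 0.04 against 0.05 over all sums, and under the other scalings 38 to 43 were positive. For 43 of the 82 symbols the whole 95% interval lay between -1 and 1.

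The 17 symbols with a mean of at least 100 normalized counts gave the tightest intervals. Their log2 fold changes ran from -0.44 (Kcna1) to 0.47 (Kcnc4), and their 95% intervals from -0.91 to 0.99 at the widest. Kcnip4 had the highest mean sum, followed by Kcna6, Kcnj16, Kcnd2 and Kcnc1. The ranges of neighbours in this order overlapped.

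**Figure D1:**
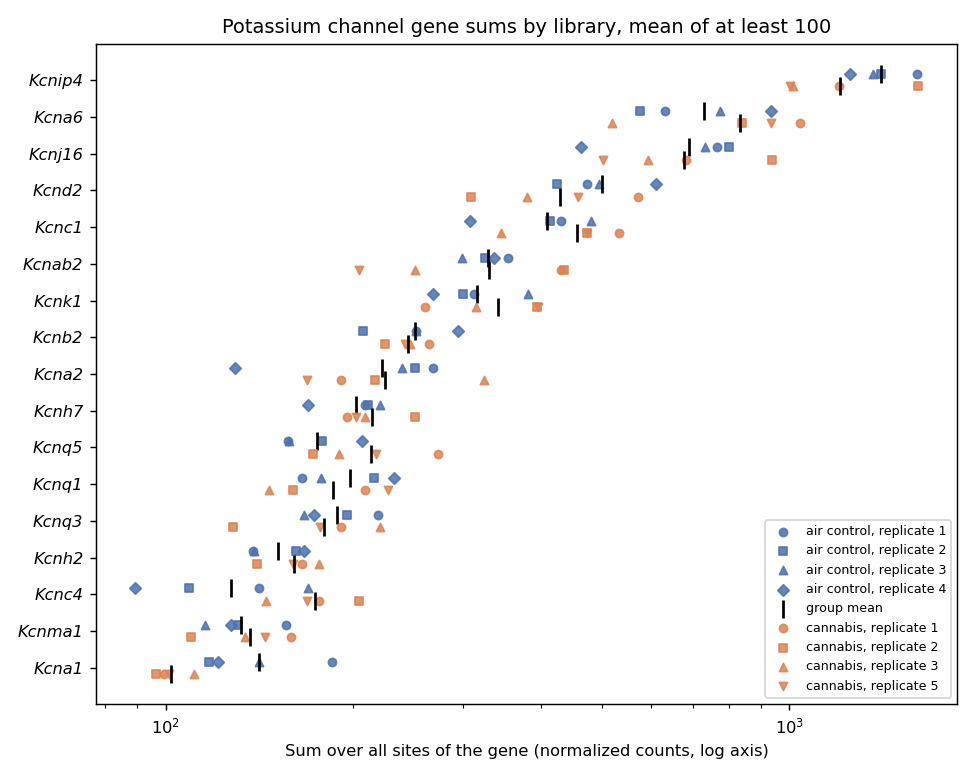
Sums of normalized counts (log axis) for the 17 potassium channel genes with a mean of at least 100, with 1 point per library, 4 air controls in blue and 4 cannabis-exposed rats in orange, and a black bar at each group mean. The colours intermingle for 16 genes and separate for Kcna1, whose 4 cannabis libraries lie between 96.3 and 111 and whose controls lie between 117 and 185.

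**Figure D2:**
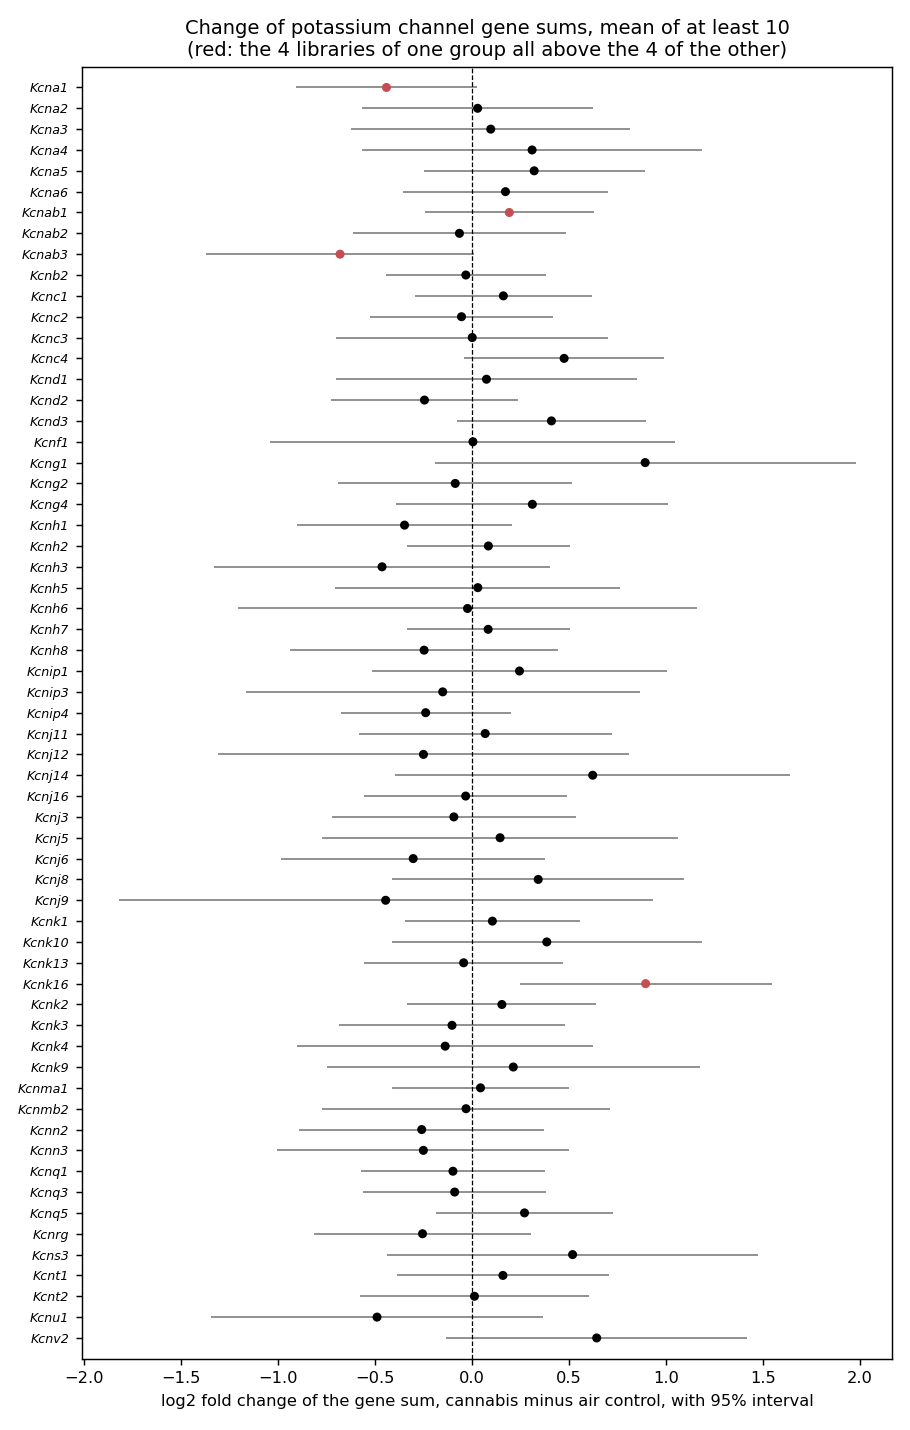
The log2 fold change of the gene sum (cannabis minus air control, limma) with its 95% interval for 61 of the 63 potassium channel genes with a mean of at least 10 normalized counts, by subfamily; the other 2 are not reported here. The interval of Kcnk16 (0.24 to 1.54) lies above 0, and red points mark the 4 genes whose groups did not overlap.

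In 4 of the 82 genes the sums of the groups did not overlap, 2 higher (Kcnk16 and Kcnab1) against 1.19% of all sums, and 2 lower (Kcna1 and Kcnab3) against 0.783% of all sums. Kcna1 was named for its role, and the other 3 after their values were seen. Kcnk16 encodes a background channel of the alkaline-activated TALK type, known from the pancreas. Its single site had 11.7, 14.4, 12.8 and 11.9 normalized counts in the controls and 24.8, 22.6, 25.6 and 24.6 in the exposed rats. Every exposed rat was above every control, and the log2 fold change was 0.89 (95% interval 0.24 to 1.54). In limma the sum had P = 0.0106 and adjusted P = 0.999, while the exact two-sided permutation test gave P = 0.0286, the smallest that 4 against 4 rats allow. In RefSeq the gene overlaps Nudt13, and the files carry no strand, so reads of these neighbours cannot be told apart.

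Kcna1 encodes a voltage-gated channel subunit of axons that opens at low voltages and keeps firing in check. The sums were 185, 117, 141 and 121 in the controls and 99.3, 96.3, 111 and 101 in the exposed rats. The groups did not overlap, with the highest exposed rat just under the lowest control, and the spread was wider among the controls (141 ± 31.0 against 102 ± 6.43). The log2 fold change was -0.44 (95% interval -0.91 to 0.03), which did not pass the threshold in limma (P = 0.0628, adjusted P = 0.999), with an exact permutation P of 0.0286. Without control replicate 1 the log2 fold change was -0.30.

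Kcnab3 and Kcnab1 encode cytoplasmic beta subunits that bind Kcna channels and can speed their inactivation. Kcnab3 had 38.7, 18.0, 29.5 and 25.8 normalized counts in the controls and 16.1, 15.3, 17.7 and 16.9 in the exposed rats. The highest exposed rat and the lowest control differed by less than 1 read of the control, and the log2 fold change of -0.68 did not pass the threshold in limma (P = 0.0530, adjusted P = 0.999, 95% interval -1.37 to 0.01, exact permutation P = 0.0286). Kcnab1 sums were 94.3, 93.4, 92.7 and 91.4 in the controls and 94.4, 118, 106 and 108 in the exposed rats, so that the groups touched at 94.3 and 94.4. The exact permutation P of Kcnab1 was also 0.0286. Kcnab2, the most abundant beta subunit, went from 328 ± 23.5 in the controls to 330 ± 120 in the exposed rats, and its exposed rats (431, 436, 251 and 204) lay on both sides of all controls. The summed midbrain dopamine markers were lower in every exposed rat, as Kcna1 and Kcnab3 were. The hypothalamus, endothelium and thalamus totals were higher, as Kcnk16 and Kcnab1 were. These genes and totals were both picked because their groups did not overlap. As the totals went both ways, each gene had to match at least 1 of them, and the match carries no information. The part of these markers in the 4 genes was not tested.

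**Figure D3:**
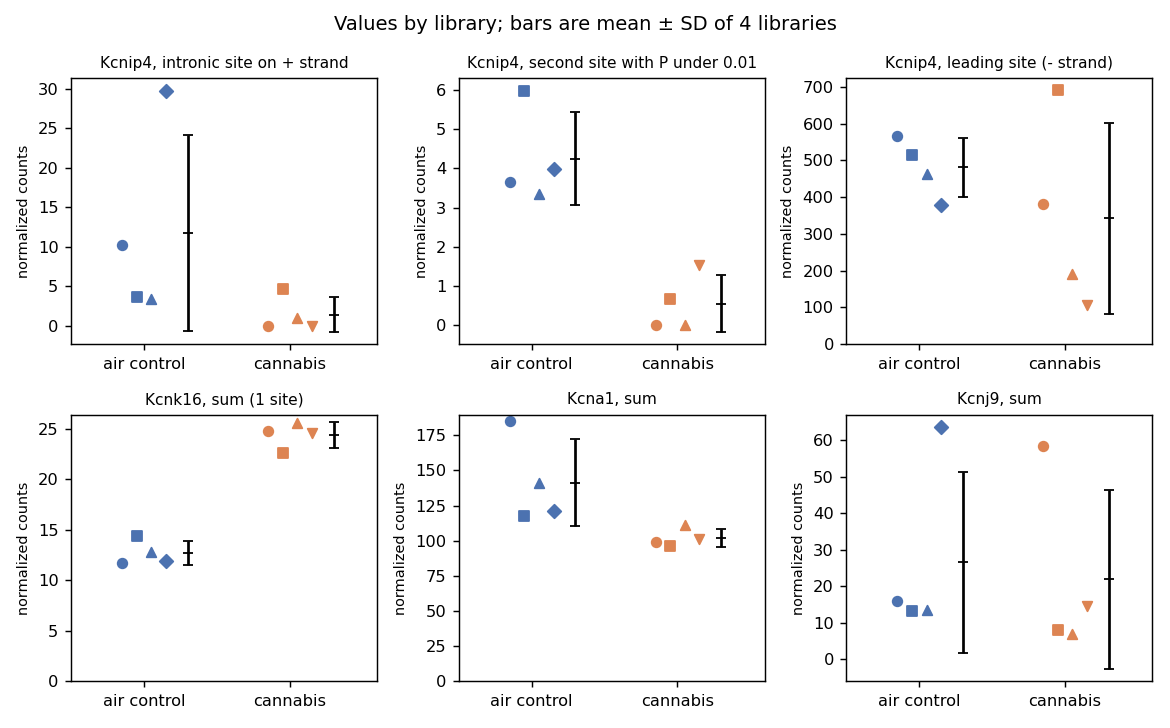
Normalized counts by library for 3 Kcnip4 sites and for the sums of Kcnk16, Kcna1 and Kcnj9, with 4 air controls in blue, 4 cannabis-exposed rats in orange and mean ± SD as black bars. Kcnk16 and Kcna1 show groups that do not overlap, while Kcnj9 shows 1 library per group, control replicate 4 at 63.6 and cannabis replicate 1 at 58.4, far above the other 6.

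Among the Kcna channels, which carry fast delayed-rectifier current near spike threshold, Kcna6 led with 632, 577, 774 and 935 in the controls and 1041, 839, 521 and 936 in the exposed rats. These ranges overlapped (log2 fold change 0.17, 95% interval -0.35 to 0.70). Kcna2, the usual partner of Kcna1 along axons, had 222 ± 63.1 and 225 ± 68.8 (log2 fold change 0.03, 95% interval -0.57 to 0.62). Of the 6 Kcna symbols, 5 had a positive log2 fold change (4 in edgeR and DESeq2, where that of Kcna2 was -0.03) and Kcna1 a negative one. None of the 6 passed the threshold.

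The Kcnc channels repolarize fast-spiking neurons. Kcnc1 had 430, 413, 481 and 308 in the controls and 533, 474, 344 and 473 in the exposed rats, with a log2 fold change of 0.16 (95% interval -0.29 to 0.62). Kcnc4, named after its values were seen, had 127 ± 35.2 against 173 ± 24.5 and a log2 fold change of 0.47 (exact permutation P = 0.0857). Its ranges overlapped, as cannabis replicate 3 (145) lay below control replicate 3 (169). Kcnb2, a delayed rectifier of slow kinetics, had 252, 207, 252 and 294 in the controls and 265, 225, 246 and 242 in the exposed rats. The groups overlapped, with a log2 fold change of -0.03 (95% interval -0.44 to 0.38).

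The Kcnd genes encode A-type channels, which dampen dendritic excitability, and Kcnip and the dipeptidyl peptidase-like genes encode their partners. Kcnd2 sums were 473, 424, 495 and 612 in the controls and 571, 308, 380 and 459 in the exposed rats. The 2 highest values of Kcnd2 were in the 2 libraries with the most empty sites, and the log2 fold change was -0.25 (95% interval -0.73 to 0.23). Kcnd3, named after its values were seen, had 63.2 ± 6.26 against 84.7 ± 12.4 (log2 fold change 0.41, exact permutation P = 0.0571), and cannabis replicate 5 (66.8) lay inside the control range. The partner genes Dpp6 and Dpp10 had log2 fold changes of 0.03 and 0.32. Of the 20 partner genes of potassium channels that were listed, 17 had a site, none passed P under 0.01 and their median log2 fold change was 0.11.

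Kcnip4, a calcium-binding protein that attaches to Kcnd channels, was the potassium channel symbol with the most sites, 85, and with the highest sum. The sums were 1602, 1402, 1360 and 1249 in the controls and 1202, 1610, 1013 and 1002 in the exposed rats. Only cannabis replicate 2 reached the level of the controls among the exposed rats, and the log2 fold change of -0.24 (95% interval -0.68 to 0.20) did not pass the threshold. Much of this sum came from a site on the minus strand of chromosome 14 (chr14:66064324-66064326 in Rnor_6.0), which the authors' classification puts in an intron. The other Kcnip4 sites with a known position were on the plus strand, and whether the minus-strand site belongs to Kcnip4 was not tested. In RefSeq Kcnip4 overlaps Cct6a-ps18, Dkc1-ps1, Eef1a1-ps20 and LOC134481849. The minus-strand site had 567, 515, 462 and 379 normalized counts in the controls and 381, 692, 191 and 106 in the exposed rats.

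That site held 34.1 ± 2.74% of the Kcnip4 counts in the controls and 26.0 ± 14.3% in the exposed rats, with 1 exposed rat above all controls and 2 below all of them. Its log2 fold change was -0.81 and did not pass the threshold in limma (P = 0.0547, adjusted P = 1.00, exact permutation P = 0.343), but it passed without cannabis replicate 2, at -1.26. With the site left out, a setting added after its strand was seen, the Kcnip4 sum was 923 ± 75.9 in the controls and 864 ± 50.4 in the exposed rats. The log2 fold change was then -0.09 (95% interval -0.46 to 0.28), nearer to 0 than with the site. The next site (chr14:66749132-66749546, plus strand, classed by the authors as distal) had 326, 338, 368 and 175 in the controls and 135, 449, 217 and 245 in the exposed rats.

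At the level of single sites, 2 of 580 were lower in the exposed rats at P under 0.01 in limma, against 0.258% of all sites, and 0 were higher, against 0.123% of all sites. At P under 0.05 there were 6 lower and 5 higher, against 3.03% of all sites in either direction. None had an adjusted P under 0.1, against 0.00102% of all sites, and the count tests called 1 site each at P under 0.01, against 0.526% of all sites in edgeR and 0.315% in DESeq2. Both sites called in limma were low-count sites of Kcnip4. The groups did not overlap at 7 sites that were higher in the exposed rats, against 0.992% of all sites, and at 7 that were lower, against 1.01% of all sites.

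The Kcnip4 site with the lowest P lay in an intron (chr14:65597939-65598055, plus strand) and ranked 28 among the Kcnip4 sites. It had 14, 3, 5 and 15 reads in the controls and 0, 7, 1 and 0 in the exposed rats. In normalized counts these were 11.7 ± 12.4 and 1.41 ± 2.21, and cannabis replicate 2 lay above 2 of the controls. The log2 fold change was -2.32 (P = 0.00353 and adjusted P = 1.00 in limma), with an exact permutation P of 0.0857. The call was lost without control replicate 1 (-2.22) or 4 (-1.73) and without cannabis replicate 1 (-2.03) or 5 (-2.03).

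The other called Kcnip4 site had 5, 5, 5 and 2 reads in the controls and 0, 1, 0 and 2 in the exposed rats, a total of 20 reads in 8 libraries. Its normalized counts did not overlap (3.36 to 5.99 against 0 to 1.54), with a log2 fold change of -1.85 (P = 0.00692 and adjusted P = 1.00 in limma) and an exact permutation P of 0.0286. It passed the threshold in neither edgeR nor DESeq2. Leaving out any library other than cannabis replicate 5 also ended the call.

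The inward rectifiers (Kcnj) were led by Kcnj16, a subunit of glia and of acid- and potassium-sensing cells. The Kcnj16 sums were 767, 801, 734 and 463 in the controls and 682, 938, 592 and 502 in the exposed rats, with a log2 fold change of -0.03 (95% interval -0.56 to 0.49). Its usual glial partner Kcnj10 was nearly without reads, at 0 to 6.89 normalized counts per library and 29 reads in all. With so few reads no difference of Kcnj10 was detectable. Only sites carrying the symbol were counted, and sites without a gene symbol were not searched for 3′ ends of Kcnj10.

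Of the G protein-gated subunits, Kcnj3, Kcnj6 and Kcnj9 had lower mean sums in the exposed rats, and Kcnj5 a higher one. Kcnj5, named after its values were seen, had 10.4 ± 4.71 in the controls and 10.9 ± 2.26 in the exposed rats. Its log2 fold change was 0.14 (95% interval -0.77 to 1.06). Kcnj3, the subunit shared by many of these channels, had 54.8, 40.7, 67.1 and 57.6 in the controls and 77.0, 33.9, 49.2 and 51.5 in the exposed rats. Kcnj6 had 49.7, 23.9, 27.5 and 45.7 in the controls and 33.5, 31.9, 25.6 and 23.0 in the exposed rats. Both overlapped between the groups, with log2 fold changes of -0.09 (95% interval -0.72 to 0.53) and -0.30 (95% interval -0.99 to 0.38). Kcnj9 had 16.1, 13.2, 13.4 and 63.6 in the controls and 58.4, 7.97, 6.89 and 14.6 in the exposed rats. Its high values were in control replicate 4 and cannabis replicate 1, the libraries with the most empty sites, and the log2 fold change was -0.45 (95% interval -1.82 to 0.93). In RefSeq Kcnj9 overlaps Igsf8. The sign was not stable for Kcnj3, at 0.10 without cannabis replicate 2, or for Kcnj9, at 0.08 without control replicate 4. That of Kcnj6 stayed negative in all alternatives.

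The pore subunits of ATP-sensitive channels, Kcnj11 of neurons and Kcnj8 of vessels, had 55.2 ± 6.84 against 61.0 ± 20.6 and 18.8 ± 5.91 against 24.01 ± 6.78 normalized counts. Neither differed beyond the spread (log2 fold changes 0.07 and 0.34). Their sulfonylurea receptor partners Abcc8 and Abcc9 were at 2.39 to 9.40 and 4.39 to 21.5 normalized counts, with log2 fold changes of 0.16 and 0.48.

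Kcnq3 and Kcnq5 encode subunits of the M current, which muscarinic and other receptors close to raise excitability. Kcnq3 had 219, 195, 167 and 173 in the controls and 191, 128, 220 and 177 in the exposed rats. Kcnq5 had 157, 178, 158 and 207 against 273, 172, 190 and 217. Both overlapped between the groups, with log2 fold changes of -0.09 (95% interval -0.56 to 0.38) and 0.27 (-0.19 to 0.73). Within Kcnq5 the site of rank 5 had 10.2, 4.79, 8.73 and 9.93 in the controls and 22.4, 13.3, 14.8 and 17.7 in the exposed rats. It was 1 of the 7 sites higher without overlap, and it did not pass the threshold (P = 0.0513 and adjusted P = 1.00 in limma, exact permutation P = 0.0286).

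The calcium-activated channels were represented by Kcnma1, the large-conductance pore subunit that shortens spikes, and by Kcnn2 and Kcnn3, small-conductance subunits that carry an afterhyperpolarization of many hypothalamic neurons. Kcnma1 had 156, 130, 115 and 127 in the controls and 159, 110, 134 and 144 in the exposed rats, a log2 fold change of 0.04 (95% interval -0.41 to 0.50). Kcnn2 had 41.0 ± 3.61 against 35.4 ± 12.3 and Kcnn3 had 33.2 ± 9.75 against 28.1 ± 10.2. The 4 Kcnn symbols all had negative log2 fold changes, none past the threshold and with a median of -0.26, while the Kcnn totals overlapped (79.0 to 94.6 against 55.9 to 92.5). The auxiliary beta subunit Kcnmb2 had a log2 fold change of -0.03.

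The background channels (Kcnk) hold the resting potential. Kcnk1 had 312, 299, 381 and 268 in the controls and 261, 394, 314 and 396 in the exposed rats, and Kcnk2, the stretch- and lipid-sensitive TREK type, had 77.5, 80.2, 78.6 and 87.4 against 118, 75.7, 77.7 and 94.5. The groups overlapped for both (log2 fold changes 0.10 and 0.15). Of the 11 Kcnk symbols 7 had positive log2 fold changes (6 in edgeR and DESeq2), and only Kcnk16 had groups that did not overlap.

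The leading symbols of the other subfamilies overlapped between the groups and did not pass the threshold. These were Kcnh7, an ether-a-go-go related channel (202 ± 22.8 against 214 ± 25.2), Kcnt1, a sodium-activated channel (87.3 ± 8.17 against 101 ± 31.6), Kcnrg, a suppressor of Kcna channels (62.0 ± 8.02 against 52.7 ± 13.3) and Kcnf1, a silent subunit (36.1 ± 13.6 against 40.5 ± 23.8). The silent subunits Kcng2, Kcnv2 and Kcns3 had log2 fold changes of -0.09, 0.64 and 0.52, and the auxiliary subunit Kcne2 and the sperm channel Kcnu1 of 1.21 and -0.49. At 0 to 12.4 normalized counts per library for Kcne2 and 8.38 to 21.9 for Kcnu1, these last values rest on few reads. The Kcne2 value was 0.56 without control replicate 4, 1.81 without control replicate 1, 0.55 in edgeR and 0.61 in DESeq2.

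The 3′ ends of potassium channel transcripts were spread unevenly over sites. A total of 22 symbols had 1 site, 60 had at least 2 and 14 had at least 10, and these 14 held 375 of the 580 sites. In counts the picture was the opposite, as the 10 sites with most counts held 41.6% of all potassium channel counts and 214 sites had a mean under 3. Of the 60 genes with at least 2 sites, the leading site held over 80% of the counts in 12 and under 30% in 10. The first kind included Kcna2 (98.5%), Kcna6 (98.3%), Kcnh2 (98.3%), Kcna1 (96.8%) and Kcnab2 (94.97%). The second included Kcnt2 (13.8%), Kcnq1 (15.0%), Kcnma1 (17.6%), Kcnq5 (17.7%), Kcnj3 (19.1%), Kcnh7 (21.6%), Kcnq3 (23.1%) and Kcnb2 (26.4%). Of these, Kcnma1 had the group means furthest apart, at 22.9% in the controls and 12.2% in the exposed rats. In limma this difference did not pass the threshold. Kcnt2, Kcnq1 and Kcnj3 also had lower means in the exposed rats, and Kcnq5, Kcnh7, Kcnq3 and Kcnb2 higher ones. Kcnh2, Kcnt2 and Kcnq1 were named here after their values were seen. The authors classed the leading sites of Kcna6 (chr4:159253902-159253964, minus strand) and Kcna2 (chr2:209852451-209852732, plus strand) as distal, that is at transcript ends. That of Kcnab2 (chr5:169570321-169570355, minus strand) was classed as exonic.

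**Figure D4:**
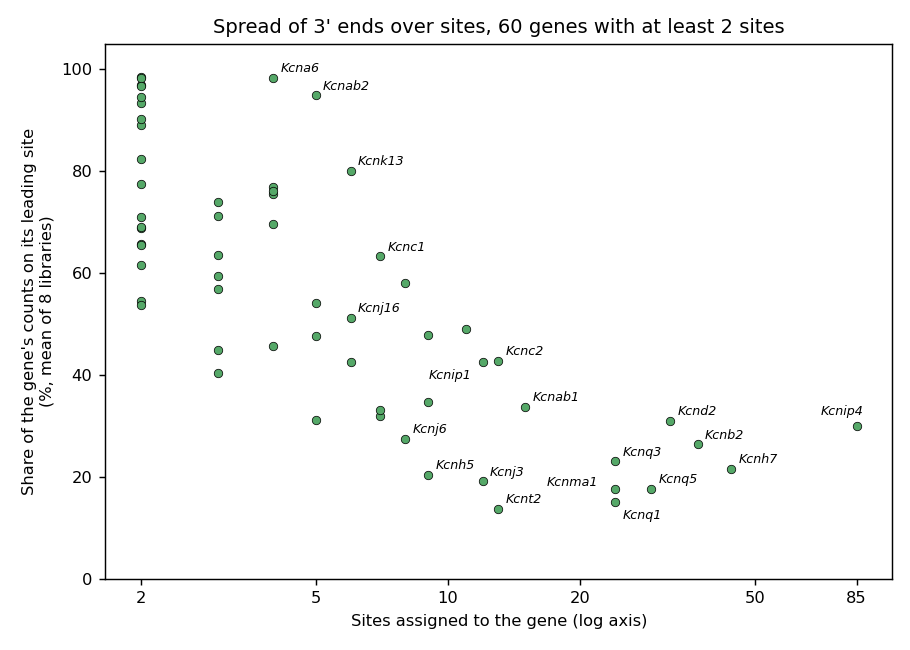
Share of a gene's normalized counts on its leading site (%, mean of 8 libraries) against the number of its sites (log axis), with 1 point for each of the 60 potassium channel genes with at least 2 sites. Kcna6 (4 sites, 98.3%) and Kcnab2 (5 sites, 94.97%) stand at the top, and genes with many sites, such as Kcnq1 (24 sites, 15.0%) and Kcnh7 (44 sites, 21.6%), lie low.

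Site use within genes was compared as the log2 ratio of a site to the rest of its gene over the 558 potassium channel sites of genes with at least 2 sites. In limma 1 share was lower in the exposed rats at P under 0.01, against 0.204% of all shares, and 0 were higher, against 0.159% of all shares. The lower share was that of the intronic Kcnip4 site described above, a change of -2.09 in the log2 ratio (P = 0.00913 and adjusted P = 1.00 in limma, exact permutation P = 0.0857). At P under 0.05 there were 7 lower and 7 higher, against 2.97% of all shares. No share had an adjusted P under 0.1, against 0% of all shares.

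For genes with several well-read sites the shares varied between rats of the same group. Kcnj16 had a leading site on the plus strand that the authors classed as distal (chr10:99391537-99391902) and another classed as exonic (chr10:99388155-99388341). The leading site held 45.2, 39.9, 43.0 and 71.7% of the Kcnj16 counts in the controls and 42.1, 42.3, 52.2 and 73.7% in the exposed rats. Control replicate 4 and cannabis replicate 5 stood above the other 6 libraries, and the groups overlapped over their whole range (49.9 ± 14.6% against 52.6 ± 14.9%). In Kcnc1 the leading site (chr1:102456280-102456559, plus strand, within an exon) held 65.4 ± 5.56% and 61.3 ± 2.98%, and the next site 28.9 ± 5.55% and 32.3 ± 2.63%. The leading site of Kcnk1 (chr19:58862882-58863269, plus strand, classed as distal) held 89.0 ± 6.94% and 89.2 ± 7.34%. For none of these 3 genes did the log2 ratio of the leading site pass the threshold, with differences of 0.16 for Kcnj16, -0.26 for Kcnc1 and -0.14 for Kcnk1 in limma.

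**Figure D5:**
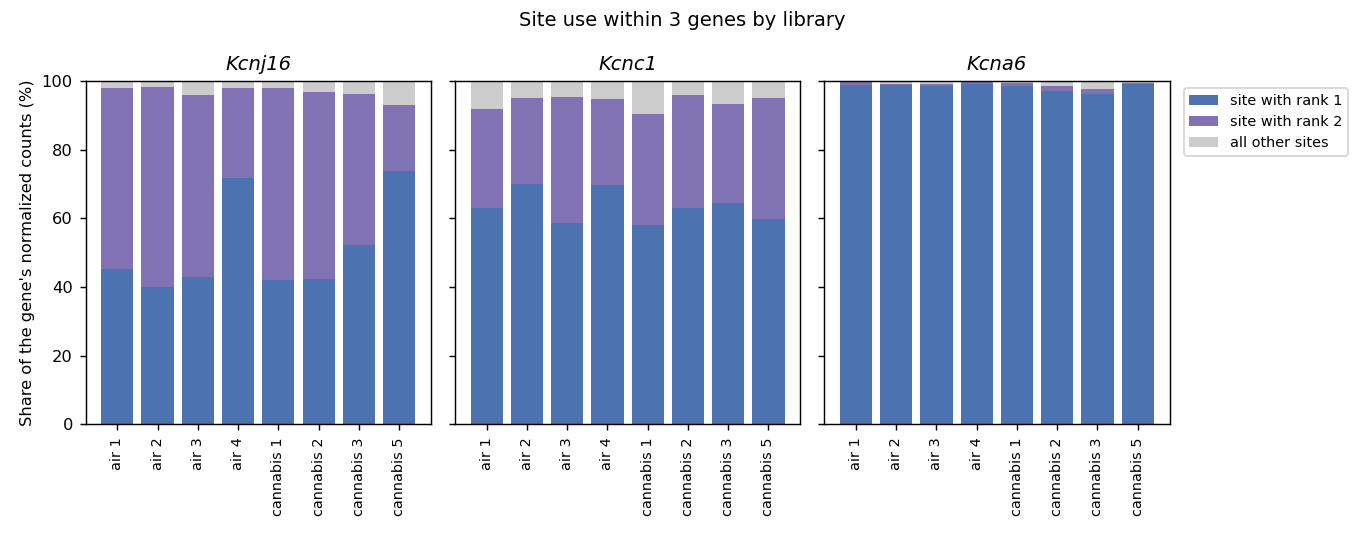
Share of the gene's normalized counts (%) on the 2 leading sites and on all other sites of Kcnj16, Kcnc1 and Kcna6, with 1 stacked bar per library for 4 air controls and 4 cannabis-exposed rats. In Kcnj16 the leading site ranges from 39.9 to 73.7%, with control replicate 4 and cannabis replicate 5 highest, whereas in Kcna6 a single site takes nearly all counts in every library.

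Kcnh6, an ether-a-go-go related channel named after its values were seen, had 2 sites whose shares did not overlap between the groups. As the shares of 2 sites mirror each other, this is a single comparison, on 114 reads in all libraries together. How many shares over all features did not overlap was not counted. The leading site of Kcnh6 held 74.2 ± 5.97% of the counts in the controls and 48.9 ± 1.42% in the exposed rats. The sum of Kcnh6 was 2.48 to 20.6 normalized counts, so that cannabis replicate 1 had 1 read on each of the sites. The difference in the log2 ratio, -1.32, did not pass the threshold (P = 0.0353 in limma, exact permutation P = 0.0286). Of the 558 potassium channel shares, 14 had P under 0.05 in limma, against 2.97% of all shares, and none had an adjusted P under 0.1.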

How the data were processed

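Hypothalamic RNA of 4 cannabis-exposed rats and 4 air-treated controls was sequenced by WTTS-Seq. Per the study's methods, the authors mapped reads to Rnor_6.0, grouped their ends as APA sites, kept those of 16 reads or more and used Cuffcompare to name the gene of each. The deposited values are a signal, namely reads per site over a DESeq2 size factor. Every value was a whole number of reads to within 0.01 read, and 1 read was worth 0.664 to 1.99 normalized counts. A median potassium channel site had 34 reads in all libraries together and a median gene 282, which limits precision. Reads without molecular identifiers carry more than counting error.

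Members and lists were chosen with earlier results of these data known. Named symbols were the most abundant of each subfamily, those with P under 0.01, those holding such a site and a list fixed by role, and exceptions are marked. Some symbols chosen this way are left out of the text but kept in all counts except those of libraries standing apart. Site counts, gene sums and site shares were each fitted over all features with lmFit and eBayes (trend), on a scale of log2(normalized count + 1), in limma 3.58.1 under R 4.3.3, without covariates or a filter, and adjusted by the Benjamini-Hochberg method. This scale understates changes of low counts. Shares were log2((site + 1)/(rest + 1)), with the trend on the smaller of both parts, chosen after simulation. On simulated reads with 200 features changed by 2 (log2), P under 0.01 found 93% of sites, 97% of sums and 70.5% of shares, and 0.843 to 0.951% of unchanged features. The changed features were drawn only from well-read ones, and for shares the rest of the gene was well read too. All features had the same simulated dispersion, and sites were drawn independently. These rates therefore do not apply to low-count sites, such as the 214 potassium channel sites with a mean under 3. Single comparisons had an exact two-sided permutation test. Alternatives were edgeR 4.0.16 and DESeq2 1.42.0 on the recovered reads, 4 pseudocounts, a mean of at least 10, equal totals, no trend, a replicate block and each library left out. Other steps ran in Python 3.11.15 with pandas 2.3.3, numpy 2.4.6, matplotlib 3.10.9 and scipy 1.17.1. Positions (10 of 580 sites, Rnor_6.0) came from the study's site table, matched by symbol and the 8 values. All 82 symbols matched RefSeq (GRCr8), where 37 overlap another gene. The files hold no strand, and no sequence of a site was used here.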

Additional observations from a re-analysis of the deposited data

Results flagged for a closer look

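Among 70 groups of 4 libraries, a potassium channel sum in 1 library stood apart from the other 3 of its group in 3 cases, where chance gives about 1 group in 20. Cannabis replicate 1 had 24.8 normalized counts of Kcns3, above the other 3 exposed rats. Kcnj9 had 63.6 in control replicate 4 and 58.4 in cannabis replicate 1, each far above the rest of its group. These 2 libraries were the ones with the most sites without a read, and the part of this in the values was not tested.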

How the results depend on the processing

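No potassium channel site, sum or share had an adjusted P under 0.1 under any alternative run, and no called value changed direction. Of 580 sites, 2 had P under 0.01; this was 1 with pseudocounts of 0.1 or 10, edgeR or DESeq2, 0 with a mean of at least 10 or without the 2 libraries with most empty sites (a setting added after seeing the data), 11 at P under 0.05, and 0 to 4 with each library left out (0 without control replicate 1, control replicate 4 or cannabis replicate 1, and 4 without control replicate 3). Of 82 sums, 0 passed; this was 1, always Kcnk16, with pseudocounts of 0.1 or 0.5, a mean of at least 10 or no trend, 1 at P under 0.05, and 0 to 0 with each library left out. Of 558 shares, 1 passed; this was 0 with pseudocounts of 5 or 10, a mean of at least 10, no trend or without the same 2 libraries, 14 at P under 0.05, and 0 to 4 with each library left out (0 without cannabis replicate 1, 4 without control replicate 3). Both called sites had a mean under 10 and so were not tested at a mean of at least 10, and otherwise the cause was not tested. Among 806 alternatives of 43 named values, 5 gained and 28 lost the threshold. A further 61, in 18 values with main log2 fold changes of at most 0.45 in size, had the other sign and were never past it.

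The values showed no pairing of the rats by the replicate numbers, and the labels do not say what these numbers mark. With only 3 pairs, whose correlations (-0.16 to 0.04) lay inside the range of the others (-0.20 to 0.29), a pairing could be missed. Deviations from the group means correlated at -0.05 on average over the 3 pairs with a shared number and at 0.01 over the 13 others, and 0 of 3 correlated best with their own number. With the replicate block, over the 3 shared numbers, 3 sites, 0 sums and 2 shares had P under 0.01, against 0.233% of all sites, 0.133% of all sums and 0.213% of all shares, and the intronic Kcnip4 site was at -1.44, no longer past the threshold.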
